A study of Mus musculus with 2 samples.

Results

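The cytochrome P450 genes of mouse liver were compared between 1 control mouse and 1 Tmprss6-deficient mouse. Members were taken by name: probe sets annotated to a single gene whose symbol is Cyp followed by a number and a letter, without the 5 sterol and bile acid genes Cyp51, Cyp7a1, Cyp7b1, Cyp8b1 and Cyp27a1. This gave 68 genes on 87 probe sets, out of 18193 named genes on the array. Por, which encodes the reductase that passes electrons to the microsomal enzymes, was to be included and is not analysed here, since 0 probe sets named it alone. Both animals were males aged 3 months of mixed 129Sv/C57BL6 background, fasted overnight before liver RNA was taken. The Tmprss6-deficient animal (Tmprss6-/-) came from a line made by gene targeting, and the other is labelled only as a control, with no word on whether it was a littermate. Tmprss6 encodes matriptase-2, a membrane serine protease of hepatocytes. RNA was hybridised to Affymetrix mouse expression arrays, 1 array per animal, so every value below describes these 2 animals, no test can be made, and genotype cannot be told apart from any other difference between them.

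Cytochromes P450 are heme enzymes that insert an oxygen atom into small molecules. In hepatocytes most sit in the endoplasmic reticulum, where families 1 to 3 oxidise drugs, toxins and steroids, family 4 hydroxylates the ends of fatty acid chains, and smaller families act on retinoic acid, steroid hormones, vitamin D and cholesterol products. Many of the genes lie in tandem clusters of close paralogs, and their transcription is set by nuclear receptors, among them CAR (Nr1i3), PXR (Nr1i2), PPAR-alpha (Ppara) and the aryl hydrocarbon receptor (Ahr), and by pituitary growth hormone, which makes several of them differ between male and female mice.

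Promoter windows are shown for members with the widest differences among those with a promoter entry. Paralogs that lay next to one of them and differed little are also shown, so that sequence and response can be read side by side. The windows come from RefSeq on GRCm38.p6, which held 56 entries for 49 of the 68 genes and none for Cyp39a1 and Cyp17a1. Each window holds the 150 bases just before the annotated gene, 5′ to 3′ on the gene's strand. Capitals mark matches to short motifs: TATAAA on the gene's strand, and on both strands AGGTCA and AGTTCA (nuclear receptor half-sites), GCGTG (core of the aryl hydrocarbon receptor site), TTATGNAA (site of the clock-driven factors DBP and NFIL3), TTCNNNGAA (STAT site) and CACGTG (E-box). A GCGTG match may overlap a CACGTG match. Cyp2b10 was the member highest in the Tmprss6-deficient liver, and Cyp1a2, Cyp2c70 and Cyp2c39 were among the lowest. Cyp2c29 and Cyp2c38 lie on either side of the Cyp2c39 start shown and had ratios within 1.5-fold.
Cyp2b10 (chr7:25897508-25897657, + strand): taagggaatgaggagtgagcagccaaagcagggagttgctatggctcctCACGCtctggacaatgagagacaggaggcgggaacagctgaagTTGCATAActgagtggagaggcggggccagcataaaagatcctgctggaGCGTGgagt
Cyp1a2 (chr9:57683656-57683805, - strand): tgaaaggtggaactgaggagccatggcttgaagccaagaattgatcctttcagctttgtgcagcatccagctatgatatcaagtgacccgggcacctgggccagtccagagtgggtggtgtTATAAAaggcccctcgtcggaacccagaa
Cyp2c70 (chr19:40187287-40187436, - strand): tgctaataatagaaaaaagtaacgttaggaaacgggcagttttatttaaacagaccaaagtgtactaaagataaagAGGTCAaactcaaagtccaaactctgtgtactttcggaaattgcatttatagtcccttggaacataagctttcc
Cyp2c39 (chr19:39347196-39347345, + strand): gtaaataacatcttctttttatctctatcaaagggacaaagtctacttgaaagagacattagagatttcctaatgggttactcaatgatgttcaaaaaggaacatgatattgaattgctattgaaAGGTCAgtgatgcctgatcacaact
Cyp2c29 (chr19:39286894-39287043, + strand): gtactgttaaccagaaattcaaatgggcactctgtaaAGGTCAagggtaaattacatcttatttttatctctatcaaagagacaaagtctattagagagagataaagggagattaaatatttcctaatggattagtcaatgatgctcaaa
Cyp2c38 (chr19:39463104-39463253, - strand): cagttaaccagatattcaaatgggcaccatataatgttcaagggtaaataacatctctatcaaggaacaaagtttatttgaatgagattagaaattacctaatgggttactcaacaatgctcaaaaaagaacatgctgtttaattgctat
The Cyp2c39 window lies before the first of 2 starts that RefSeq lists for the gene. The other start lies beyond Cyp2c38, so the order of these neighbours depends on the start taken. For Cyp26a1, a retinoic acid hydroxylase gene, only a 27-base site is shown, which holds 2 copies of the half-site AGTTCA (read on the other strand) separated by 5 bases. It lies before the start that the promoter table uses, but inside the annotated gene, which begins further upstream:
Cyp26a1 (chr19:37697771-37697797, + strand): aaagaTGAACTttgggTGAACTaattt
That spaced repeat occurred in 7 of 32851 promoters of the table over the 250 bases before that table's start, and among the members only in Cyp26a1. Over the same length, TATAAA was found in 21.4% of member promoters against 7.59% of all, AGGTCA in 23.2% against 14.0%, AGTTCA in 12.5% against 11.8%, GCGTG in 23.2% against 28.2%, TTATGNAA in 5.36% against 3.07%, TTCNNNGAA in 5.36% against 7.02% and CACGTG in 3.57% against 6.02%. These shares count entries, so several starts of 1 gene, such as those of Cyp4f14, and close paralogs count separately. The member share for TTATGNAA rests on 3 entries. A match is a description of letters and not evidence of binding.

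Signals are MAS5 intensities on a linear scale, with 1 value per probe set and array. For each gene the brightest probe set is given, ratios are Tmprss6-deficient over control, and signals under a floor of 17.8 (the median of both arrays) were raised to it. A gene above the floor on 1 array only has a bound, written as "at least". The targeted gene Tmprss6 read 1868 in the control and 88.1 in the Tmprss6-deficient liver, and the labels do not say whether its probes lie in the deleted part. The error available here is how far log2 ratios of 1 gene differ among its own probe sets: the SD was 0.46 at signals under 64, 0.37 between 64 and 256, 0.32 between 256 and 1024, and 0.18 above. It leaves out variation between animals, and the number of arrays limits the precision. Hepatocyte markers had log2 ratios from -0.56 to 0.08 over 9 genes, 0 of them past 1.5-fold, with summed signals of 165881 and 150972 in control and Tmprss6-deficient liver. Summed signals of other markers, in the same order, were 3088 and 2255 for macrophages (8 of 8 genes measured, that is, above the floor on 1 or both arrays), 1328 and 1277 for endothelium (8 of 8), 2657 and 2622 for stellate cells and fibroblasts (8 of 8), 129.6 and 42.4 for cholangiocytes (4 of 5, each above the floor in the control only), 172 and 174 for neutrophils (5 of 6), and 79.3 and 122 for T and B cells (4 of 7). All these sums are of signals without the floor, over every marker with a probe set, those below the floor included. Each cholangiocyte marker was below the floor in the Tmprss6-deficient liver, so the size of that difference cannot be read. Part of the T and B cell sums likewise came from signals below the floor. Among intestinal markers Fabp2 read 2045 and 2078, while Vil1, Lct, Cdx1 and Cdx2 were below the floor on both arrays. Near-equal sums covered wide single differences: Lyve1, of endothelium, was 4.71-fold higher and Clec4g 1.98-fold lower, and Acta2, of stellate cells, was 5.76-fold lower on the brighter of 2 opposed sets. The part of these cell types in the P450 values was not tested, and in whole tissue fewer cells of a type and less RNA per cell cannot be told apart.

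More P450 genes were lower than higher in the Tmprss6-deficient liver. Of 68 genes, 51 were measured, and 17 of these lay at least 1.5-fold apart in either direction, against 18.1% of all 12243 measured genes. Of the 51, 11 were at least 1.5-fold lower, against 9.2% of all, and 6 were at least 1.5-fold higher, against 8.86%. As shares, 21.6% of the P450 genes were lower and 11.8% higher, and the remaining 34 lay within 1.5-fold. At this threshold and over all signals the share higher was near that of all genes, and the share lower was above it. Since P450 signals are mostly bright and bright signals vary less, the same counts were made at a mean signal of 256 or more. Here 9 of 32 P450 genes (28.1%) were lower and 4 (12.5%) were higher, against 4.74% and 3.7% of 3437 genes. Both shares were above those of all genes, but the mean covers both arrays, so a gene can pass through the array where it is high. Of the higher genes, Cyp2b10 and Cyp39a1 were under 256 in the control (121.6 and 254.2). Of the lower genes, Cyp2c39 was under it in the Tmprss6-deficient liver (59.2). The share higher thus rests in part on genes that passed through 1 array. The median log2 ratio was -0.18 over the 51 genes, beside -0.0050 over all measured genes, and 33 of the 51 had a ratio below 0. At 2-fold or more, 5 of the 51 P450 genes were lower and 4 higher, against 2.78% and 2.38% of all genes, and again both shares were above. Where a member had more than 1 probe set above the floor on both arrays, all sets pointed one way for 6 of 8 genes.

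**Figure D1:**
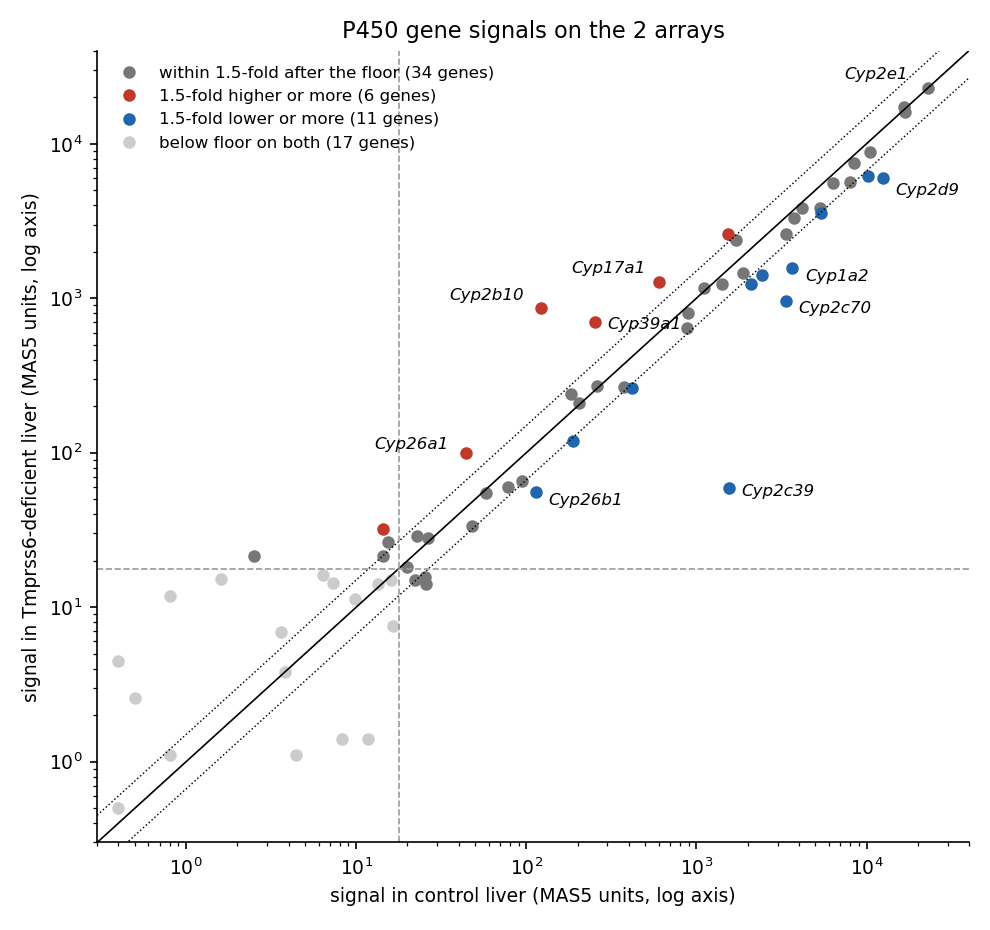
Signal of each of the 68 P450 genes in control (x) and Tmprss6-deficient liver (y), both log axes in MAS5 units, 1 array each. The solid line marks equal signal, the dotted lines 1.5-fold, and the dashed lines the floor of 17.8; Cyp2c39 lies farthest below the diagonal among genes above the floor on both arrays (1556 and 59.2) and Cyp2b10 farthest above it (122 and 862).

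Among the genes that foreign compounds induce through CAR and PXR, Cyp2b10 stood far above the rest. Cyp2b10, the classical phenobarbital-inducible gene of mouse liver, read 122 in the control and 862 in the Tmprss6-deficient liver on its brightest probe set. On its other sets it read 114 and 738, and 97.9 and 585.7. All 3 sets were high in the Tmprss6-deficient liver, by 7.09-fold, 6.48-fold and 5.98-fold, and the last of these is the only one not marked by the manufacturer as able to match related transcripts. Only 6 of the 12243 measured genes had a higher ratio. Its cluster neighbours Cyp2b9, Cyp2b13 and Cyp2b19 were below the floor on both arrays, with signals between 3.8 and 16.2, so within the subfamily only Cyp2b10 could be read. The Cyp2b10 window printed above holds a TTATGNAA match on the other strand, starting 58 bases before the gene, and a pair of GCGTG matches.

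The Cyp3a genes, which include the main drug-oxidising enzymes of the liver, were split. Cyp3a11, the most studied PXR target in mouse liver, had signals of 16863 (control) and 16024 (Tmprss6-deficient), and Cyp3a25 read 10451 and 8872. Both were within 1.5-fold. Cyp3a13, a member also expressed in the intestine, read 1542 and 2620 and was 1.70-fold higher, a log2 ratio of 0.76 where the probe set SD was 0.18. Cyp3a44, a form that predominates in female liver, read 14.4 and 31.9 and was at least 1.79-fold higher. Cyp3a16, a fetal form, was below the floor on both arrays. The subfamily median of 0.35 rests on the dim Cyp3a44: over the 3 genes above the floor on both arrays it was -0.074.

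Over all P450 genes listed as CAR or PXR targets, 2 of 9 measured genes were higher (Cyp2b10 and Cyp3a13) and 1 was lower (Cyp2c54). These are 22.2% and 11.1%, beside 8.86% and 9.2% of all genes, so the share lower was near that of all genes. The median log2 ratio was -0.074. The other 6 lay within 1.5-fold. The direction of that median depends on the setting: it was 0.038 with loess and, when dimmer signals were admitted by a floor at the 30th percentile, 0.20 with 4 genes higher.

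The Cyp2c genes, whose enzymes oxidise drugs and arachidonic acid, had the widest range of ratios of the subfamilies. Of 10 measured genes, 3 were lower (30%, beside 9.2% of all genes) and 0 were higher (beside 8.86%). The other 7 lay within 1.5-fold, and the median was -0.38. Cyp2c39, which hydroxylates retinoic acid, read 1556 in the control and 59.2 in the Tmprss6-deficient liver on its single probe set. It was 26.3-fold lower, a log2 ratio of -4.72 where the probe set SD was 0.32. Among the 3437 genes with a mean signal of 256 or more, 0 had a lower ratio, the targeted gene Tmprss6 included at -4.41. Cyp2c39 passed that filter through its control signal. Only 3 of the 12243 measured genes had a lower ratio at any signal. Cyp2c70, which makes the muricholic acids typical of mouse bile, read 3345 and 963 and was 3.47-fold lower on its single set. Cyp2c54, an arachidonic acid epoxygenase gene, read 2097 and 1242 and was 1.69-fold lower.

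The other Cyp2c genes were close between the animals. Cyp2c29, a bright gene induced by phenobarbital, read 6392 and 5572, and Cyp2c50 read 4183 and 3839. Cyp2c68 (3379 and 2601), Cyp2c23 (1883 and 1453) and Cyp2c38 (879 and 641) were lower by less than 1.5-fold. Cyp2c37 read 1707 and 2376, a log2 ratio of 0.48, and Cyp2c55 passed the floor in the Tmprss6-deficient liver alone (15.4 and 26.3), at least 1.48-fold higher. Cyp2c65 was below the floor on both arrays. Next to each other in the order of their first starts, Cyp2c29, Cyp2c39 and Cyp2c38 had log2 ratios of -0.20, -4.72 and -0.46. Their promoters were close in sequence: over 250 bases Cyp2c39 was 74.1% identical to Cyp2c29 and 75.8% to Cyp2c38 from the start shown, and 68.1% and 71.0% from its other start. Probes for a Cyp2c gene may also bind transcripts of its paralogs, and Cyp2c39 has no other probe set to set its difference against.

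Cyp1 genes respond to dioxin-like compounds through the aryl hydrocarbon receptor. Cyp1a2, the constitutive member in liver that metabolises caffeine, read 3664 and 1559 and was 2.35-fold lower in the Tmprss6-deficient liver, or -1.23 against a probe set SD of 0.18. Cyp1a1, the inducible member, was below the floor on both arrays at 16.1 and 14.9. Cyp1b1 was above the floor only in the control (22.3 and 14.9), at least 1.25-fold lower. Of 4 targets of the same receptor outside the family, 2 were measured and 0 passed 1.5-fold: Nqo1 read 61.2 and 68.8, and Tiparp read 68.9 and 103.2. Aldh3a1 and Ahrr were below the floor on both arrays.

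Of the Cyp2d genes, which oxidise basic drugs and steroids, 1 of 7 measured was at least 1.5-fold lower and 0 were higher. The share lower, 14.3%, was near the 9.2% of all genes, of which 8.86% were higher. All 7 had ratios below 0, with a median of -0.50. Cyp2d9, a male-specific steroid 16-alpha-hydroxylase gene, read 12505 and 6015 and was 2.08-fold lower on its only probe set. Cyp2d10 read 8469 and 7465, Cyp2d26 read 8037 and 5696, and Cyp2d22 read 889 and 799 with its second set at 791 and 569. Cyp2d13 read 377 and 266 on a first set and 229 and 157 on another. Cyp2d40 (57.7 and 54.6) was near equal, Cyp2d12 was above the floor only in the control (25.4 and 15.7), and Cyp2d34 was below it on both. Without Cyp2d12, the median of the subfamily was -0.34. Cyp2d9 and Cyp2d10 lie side by side with promoters that were 82.3% identical over 250 bases, and had log2 ratios of -1.06 and -0.18.

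Of the remaining members, Cyp2f2 passed 1.5-fold and the others described here did not. Cyp2e1, the ethanol-metabolising enzyme gene, read 22940 and 23076, a log2 ratio of 0.0085. Cyp2a12, a testosterone hydroxylase gene, read 5300 and 3862 and was within 1.5-fold. Cyp2f2, which activates naphthalene, read 10204 and 6156 and was 1.66-fold lower. Cyp4b1 read 204.5 and 209.6 and Cyp2s1 was above the floor only in the control (25.8 and 14.1). Cyp20a1, whose substrates are not settled, read 184 and 241, with its 2 dimmer sets in opposite directions.

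The Cyp2j, Cyp4a and Cyp4f subfamilies act on fatty acids and eicosanoids. At least 1.5-fold lower were 1 of 3 measured Cyp2j genes, 1 of 3 Cyp4a genes and 1 of 5 Cyp4f genes, and 0 were higher. The shares of all genes were 9.2% lower and 8.86% higher. The Cyp4a genes are induced in fasting liver through PPAR-alpha. Cyp4a14 read 16517 and 17224 and Cyp4a31 read 1406 and 1243, with its second set at 411 and 402, so both were within 1.5-fold in these fasted animals. Cyp4a12a, the male-predominant arachidonic acid hydroxylase gene, read 5401 and 3584 and was 1.51-fold lower, just past the threshold, and it fell short of 1.5-fold with quantile normalization and with loess. Among the Cyp4f genes, which inactivate leukotrienes, Cyp4f14 was lower by 1.59-fold (419 and 263), while Cyp4f15 (1113 and 1159) and Cyp4f13 (259 and 268) were near equal. Cyp4f16 (22.8 and 28.9) and Cyp4f39 (20.0 and 18.2) were close to the floor, and with that of Cyp4f16, 3 of the 5 measured Cyp4f ratios were above 0. Cyp4v3, a fatty acid omega-hydroxylase gene, read 2445 and 1413 and was 1.73-fold lower, with a second set 1.31-fold lower (1289 and 980). The 3 measured epoxygenase genes of the Cyp2j subfamily had ratios below 0 on their brightest sets: Cyp2j6 was 1.59-fold lower on its brighter set (188 and 118) and the same on the other (149.7 and 93.9). Cyp2j9 read 94.0 and 65.7, and Cyp2j5 read 3753 and 3315 with a second set in the opposite direction (970 and 1149), so that the mean of its sets was 0.032. The listed eicosanoid genes are those of Cyp2j and Cyp4f alone, without Cyp4a12a and Cyp2c54. Of 8 measured, 2 were lower (25%) and 0 higher (1 when a floor at the 30th percentile was used), beside the same shares of all genes. Their median was -0.16.

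Families 17, 26 and 39 act on hormones, retinoids and sterols. Of their measured genes, 3 were at least 2-fold higher and 1 was at least 2-fold lower, which are all that were measured, beside 2.38% and 2.78% of all genes. Cyp11a1, Cyp21a1 and Cyp46a1, of other families for such compounds, did not pass 1.5-fold and are outside this count. The contrast with all genes therefore depends on the families taken. Over the listed genes for such compounds, 1 of 3 measured steroid-hormone genes and 1 of 2 sterol genes were at least 2-fold higher. In these lists 0 were lower, and the 1 measured vitamin D gene lay within 1.5-fold. Among members of other families that act on such compounds, Cyp2c39, Cyp2c70 and Cyp2d9 were at least 2-fold lower, as given above. Others lay within 1.5-fold, among them the testosterone hydroxylase gene Cyp2a12 and, of the Cyp2d genes, Cyp2d10, Cyp2d26 and Cyp2d22. Cyp39a1, an oxysterol 7-alpha-hydroxylase gene of liver, read 254 and 697 and was 2.74-fold higher, or 1.46 against a probe set SD of 0.32. Cyp17a1, the 17-alpha-hydroxylase of steroid synthesis, read 600 and 1279 and was 2.13-fold higher. The retinoic acid hydroxylases lay in opposite directions: Cyp26a1 read 44.4 and 99.1 and was 2.23-fold higher, and Cyp26b1 read 113 and 55.4 and was 2.05-fold lower. Each was read by 1 probe set at a signal where the probe set SD was 0.37. With Cyp2c39, a retinoic acid hydroxylase of another family, 1 of these 3 genes was higher and 2 were lower. Steroid synthesis genes of the adrenal were near the floor: Cyp11a1 (14.3 and 21.4) and Cyp21a1 (2.5 and 21.4) passed it in the Tmprss6-deficient liver alone, and Cyp11b1 and Cyp11b2 were below it on both. Among kidney and adrenal markers outside the family, Star likewise passed the floor there alone (2.1 and 22.2), and Lrp2 lay at the floor (17.8 and 18.8). Kap went the other way and passed it in the control alone (25.1 and 6.2), and Umod and Slc34a1 were below it on both arrays. The part of such tissue in these values was not tested. Of the vitamin D genes, the 25-hydroxylase gene Cyp2r1 read 77.7 and 59.8, and Cyp24a1 and Cyp27b1 were below the floor on both arrays. Cyp46a1, the cholesterol 24-hydroxylase of brain, read 26.5 and 27.9. Cyp2u1 read 47.9 and 33.5, with a dimmer set in the other direction.

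**Figure D2:**
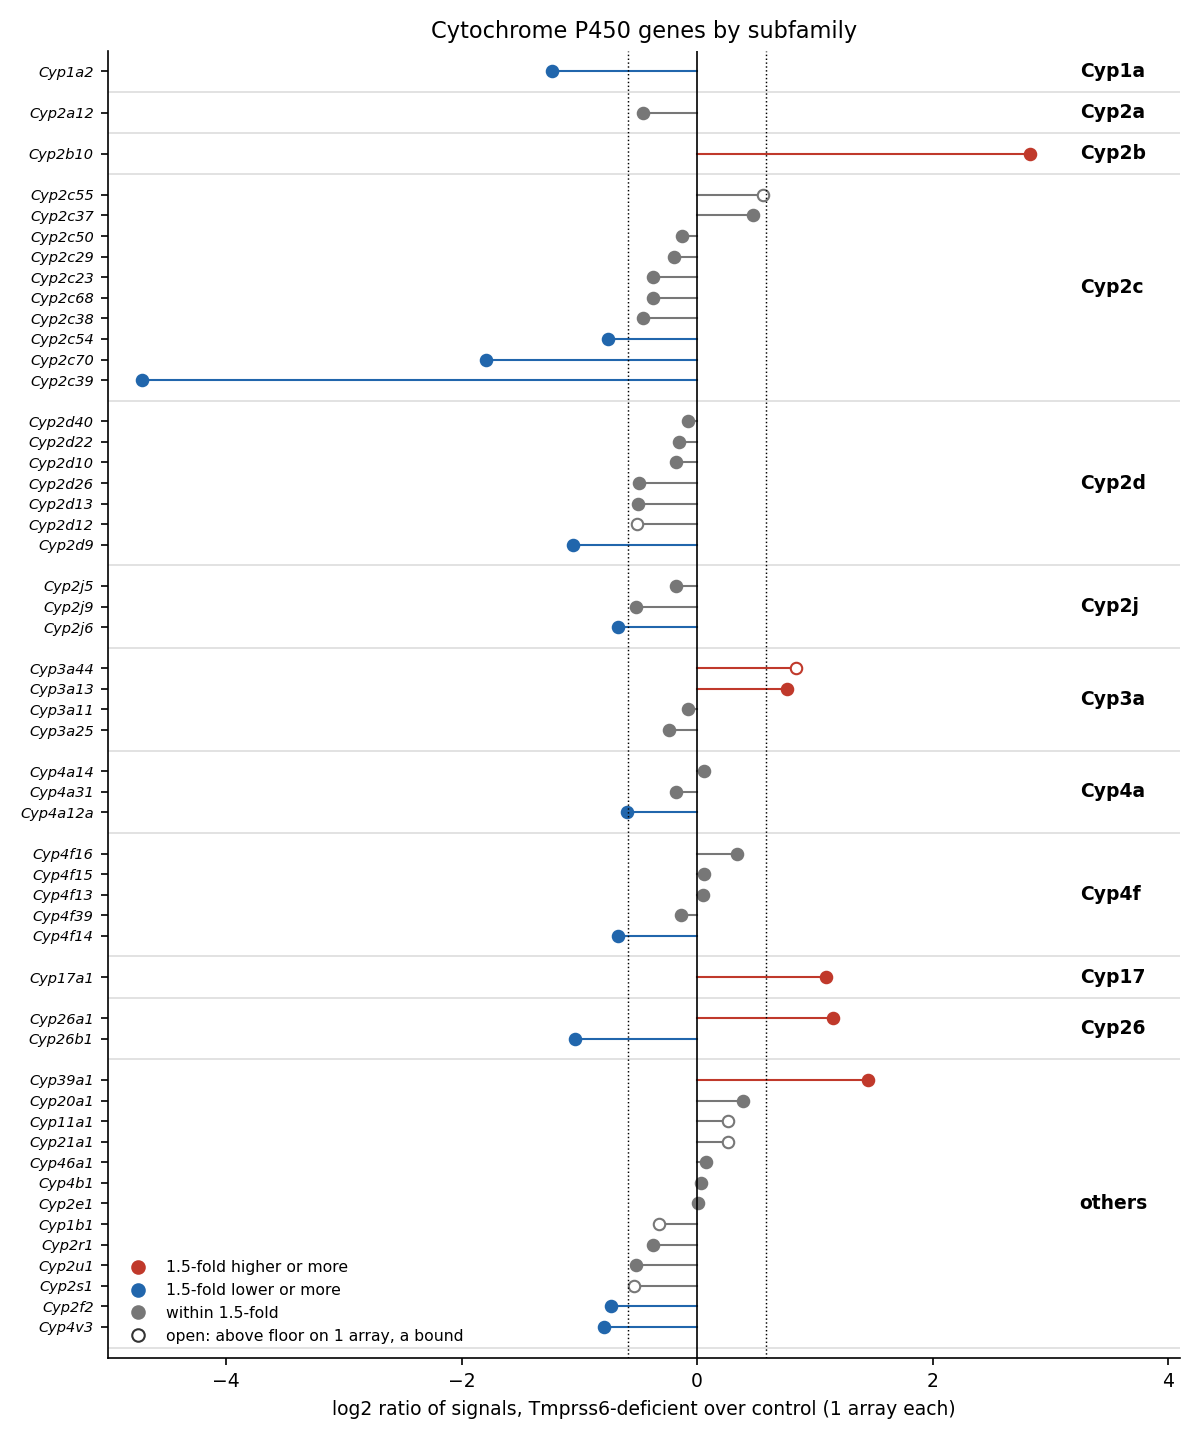
Log2 ratio of signals, Tmprss6-deficient over control, for the 51 P450 genes above the floor on at least 1 array, grouped by subfamily. Filled points are above the floor on both arrays, open points are bounds, dotted lines mark 1.5-fold; the 7 Cyp2d genes all lie below 0, and the Cyp2c genes spread from -4.72 to 0.56.

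The 17 members below the floor on both arrays got no ratio. Besides those named above they were Cyp2j11, Cyp2j13, Cyp4f18, Cyp4f41-ps, Cyp2g1 and Cyp4x1. Their signals ran from 0.4 to 16.4 in the control and from 0.5 to 16.2 in the Tmprss6-deficient liver. No order can be read among them.

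Position in the genome was read as gene order alone. The 10 Cyp2c genes of 1 cluster had a median log2 ratio of -0.38 over 9 measured genes, and Cyp2c39 and Cyp2c70 lay far below their neighbours. In the cluster that runs from Cyp2s1 over Cyp2b, Cyp2g and Cyp2a to Cyp2f2, Cyp2b10 was 7.09-fold higher and the other measured genes, Cyp2s1, Cyp2a12 and Cyp2f2, all had ratios below 0. The Cyp2d cluster lies on the same chromosome as Tmprss6, with 99 protein-coding genes between Tmprss6 and its nearest member, Cyp2d22. All 6 measured Cyp2d genes placed in that cluster had ratios below 0, from -1.06 to -0.080. The mice were of mixed background, and which strain's DNA each animal carried at any of these clusters was not analysed here.

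**Figure D3:**
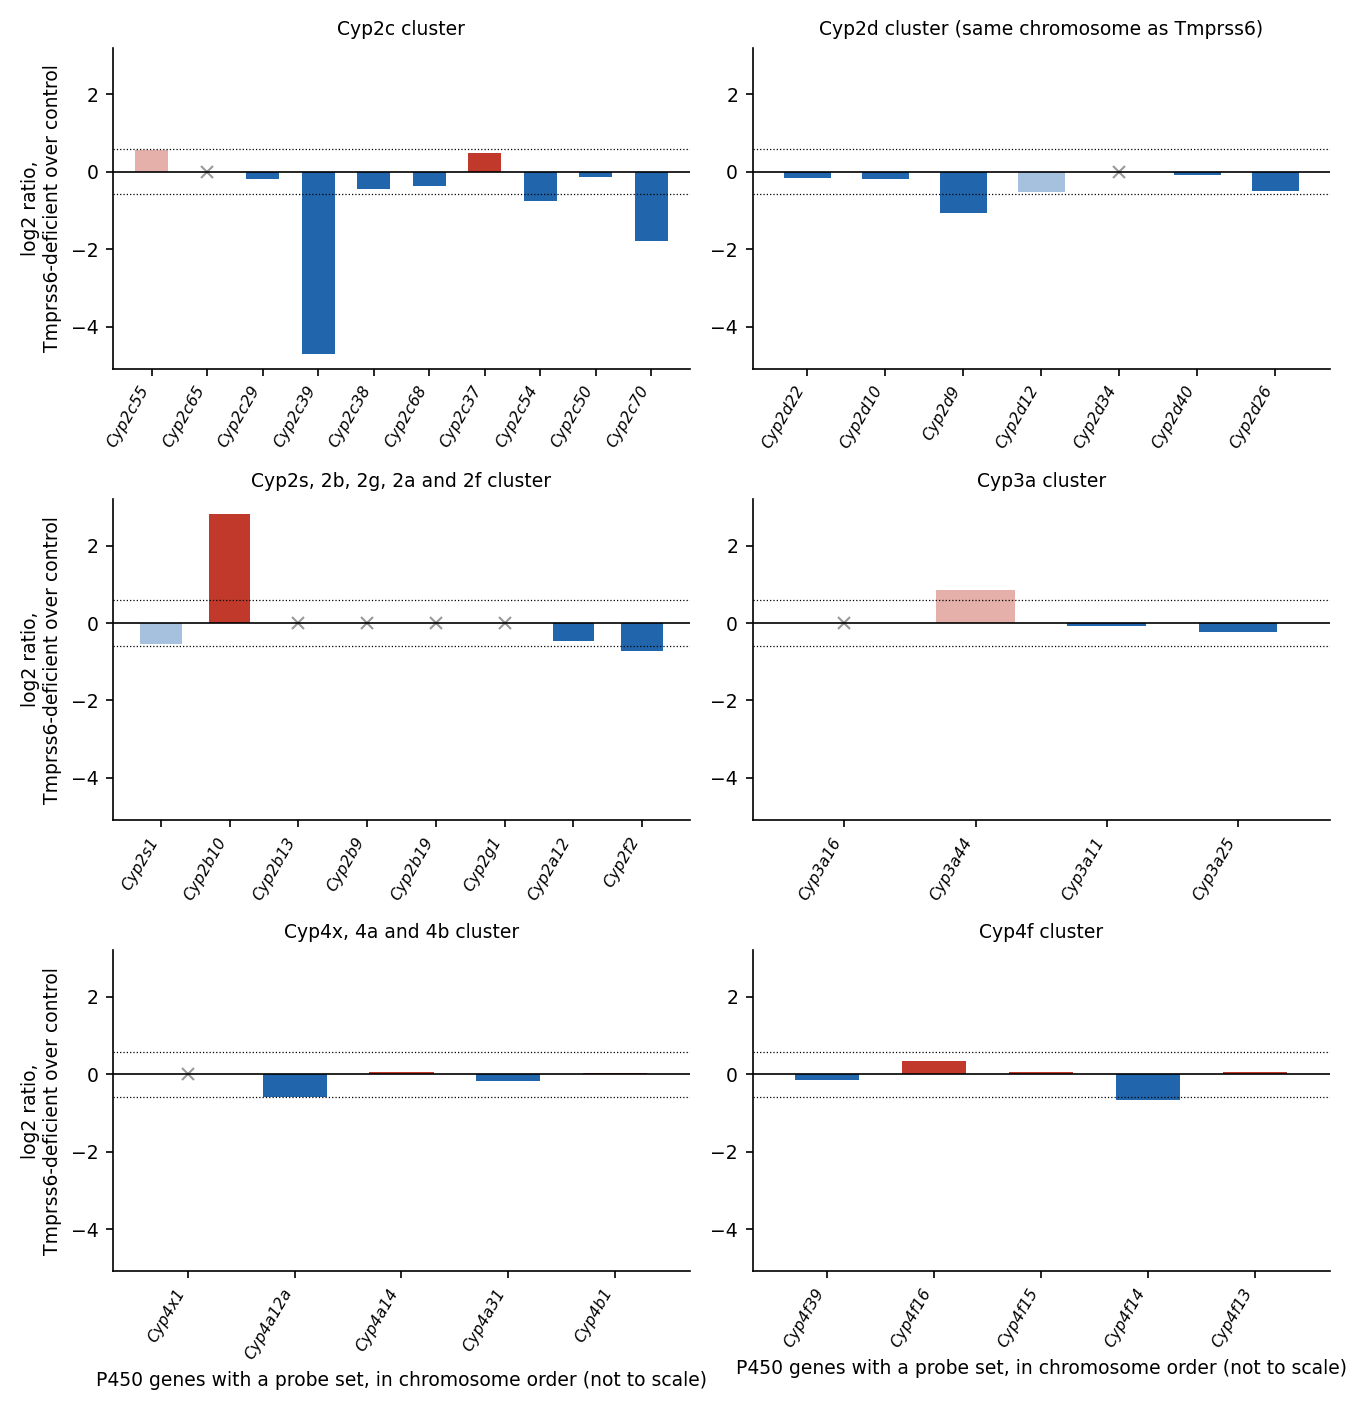
Log2 ratio, Tmprss6-deficient over control, of P450 genes in chromosome order within 6 clusters, with equal spacing in place of distance. Full bars are genes above the floor on both arrays, pale bars are bounds, crosses are genes below the floor on both, and dotted lines mark 1.5-fold; Cyp2c39 at -4.72 and Cyp2c70 at -1.80 stand beside Cyp2c38 at -0.46 and Cyp2c50 at -0.12.

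By sex bias, 2 of 3 measured male-predominant P450 genes were lower and 3 of 4 measured female-predominant genes were higher, beside 9.2% and 8.86% of all genes. The lower genes were Cyp2d9 and Cyp4a12a, and the latter lost its call with loess and with quantile normalization, while Cyp2u1 had a log2 ratio of -0.52 with a dimmer set in the other direction. The higher genes were Cyp2b10, Cyp17a1 and Cyp3a44, the last as a bound, and Cyp4a14 was near equal. These lists are small and share Cyp2b10 with the CAR list, and the rest of the female-predominant genes with a probe set (Cyp2b9, Cyp2b13 and Cyp3a16) were below the floor. Bcl6, a male-biased repressor of female-type genes, read 535 and 168 and was 3.19-fold lower, with both of its measured sets in that direction. Cux2, a female-specific factor, read 29.8 and 30.9, and Stat5b, which carries the growth hormone signal, read 152 and 171. The related Stat5a read 69.7 and 105.6 and was 1.52-fold higher, just past the threshold, with both of its sets higher. By position in the liver lobule, 9 pericentral genes had a median of -0.074 (0.038 with loess). Of these, 1 was higher (Cyp26a1, 11.1% beside 8.86% of all genes) and 2 were lower (Cyp1a2 and Cyp2c54, 22.2% beside 9.2%). The periportal genes Cyp2f2 and Cyp17a1 went in opposite directions.

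Genes that supply electrons and heme to P450 enzymes passed 1.5-fold at shares near those of all genes. Of 16 measured genes, 1 was higher (6.25%, beside 8.86% of all genes), 2 were lower (12.5%, beside 9.2%) and the median log2 ratio was -0.070. With the mean of each gene's probe sets 0 were lower. Cpox, an enzyme of heme synthesis, read 926 and 1482 and was 1.60-fold higher on its brightest of 3 sets, all of them higher. Cyb5b, an outer mitochondrial cytochrome b5, read 921 and 586 and was 1.57-fold lower, a call that the mean of its sets lost. The cytochrome b5 reductase gene Cyb5r3 read 2370 and 1266 on its brightest set, 1.87-fold lower, but its plain probe set had a log2 ratio of 0.45, so its direction is uncertain. Alad, the enzyme of the next step of heme synthesis after Alas1, read 994 and 759. Alas1, which sets the rate of liver heme synthesis, read 4010 and 4413, and the microsomal cytochrome b5 gene Cyb5a read 10143 and 9306.

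Receptors and factors that act on P450 promoters differed in both directions, with 6 of 33 measured genes higher (18.2%, beside 8.86% of all genes), 8 lower (24.2%, beside 9.2%) and a median of 0.053. With scaling to the same median the sign of that median turned and 3 genes were higher, and with the mean of probe sets 5 were lower. The CAR gene Nr1i3 read 1366 and 806 and was 1.69-fold lower, and the PXR gene Nr1i2 read 232 and 335, within 1.5-fold. Hnf4a, a master factor of hepatocyte genes, read 3148 and 4850 and was 1.54-fold higher, with all 4 of its sets higher. Rora read 349 and 635 and was 1.82-fold higher, with 2 of 8 sets in the other direction. Esr1 read 269 and 426 and was 1.58-fold higher, with both sets higher. Rara passed the floor in the Tmprss6-deficient liver alone (9.9 and 26.9), at least 1.51-fold higher, and Stat5a is given above. Ncoa1 read 237 and 157 and was 1.51-fold lower. The 4 widest differences were those of Dbp, Bcl6 (given above), Rxrg and Nfil3. Dbp, an activator that binds TTATGNAA sites, read 696.5 and 76.4 and was 9.12-fold lower on both sets, and Nfil3, the repressor of the same sites, read 103 and 234 and was 2.27-fold higher. Tef, related to Dbp, read 608 and 356 on its brightest set, with 1 of 3 sets in the other direction, and Hlf, of the same group, read 283 and 299. Nr0b2, the corepressor SHP, read 592 and 261, and Nr5a2, the receptor LRH-1, read 677 and 325 with 1 of 3 sets in the other direction. Ppara read 2260 and 1559 and Ahr 583 and 419, each within 1.5-fold. Rxrg, a partner of these receptors, was above the floor only in the control (41.6 and 10.7), and the far brighter partner Rxra read 1000 and 1091. Whether these factors bear on the P450 values was not tested.

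Outside the family, the CAR and PXR targets and the listed enzymes of the first phase of drug metabolism held more lower than higher genes. Not all of the listed enzymes are microsomal. Of 20 measured CAR or PXR targets outside the family, 6 were lower, 2 were higher and the median was -0.47, beside the shares of 9.2% and 8.86% of all genes. Aldh1a7, an aldehyde dehydrogenase gene, read 4093 and 1926 and was 2.13-fold lower, and Gsta2, a glutathione transferase gene, was 1.98-fold lower (871 and 439). Abcb1a, a drug efflux pump gene, was dim (40.3 and 19.3) and 2.09-fold lower, and the noncoding RNA gene Meg3 was 2.78-fold lower on the brightest of 8 measured sets, 3 of which pointed the other way. Of 13 other phase I enzymes, 5 were lower (38.5%, beside 9.2% of all genes; 2 of them by 2-fold or more), 1 was higher and the median was -0.29. The aldehyde oxidase gene Aox3 read 2144 and 462 and was 4.64-fold lower, and the carboxylesterase genes Ces1f (3630 and 1325), Ces1d (2664 and 1352) and Ces1e (709 and 377) were 2.74-fold, 1.97-fold and 1.88-fold lower. PPAR-alpha targets outside the family had a median of -0.054 over 22 genes (above 0 with loess), with 3 lower (13.6%, near the share of all genes) and 1 higher. Acot4 and Acot3, acyl-CoA thioesterase genes, were 2.08-fold and 2.03-fold lower, Vnn1 was 1.56-fold lower, and the lipid droplet gene Cidec read 412 and 767.

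**Figure D4:**
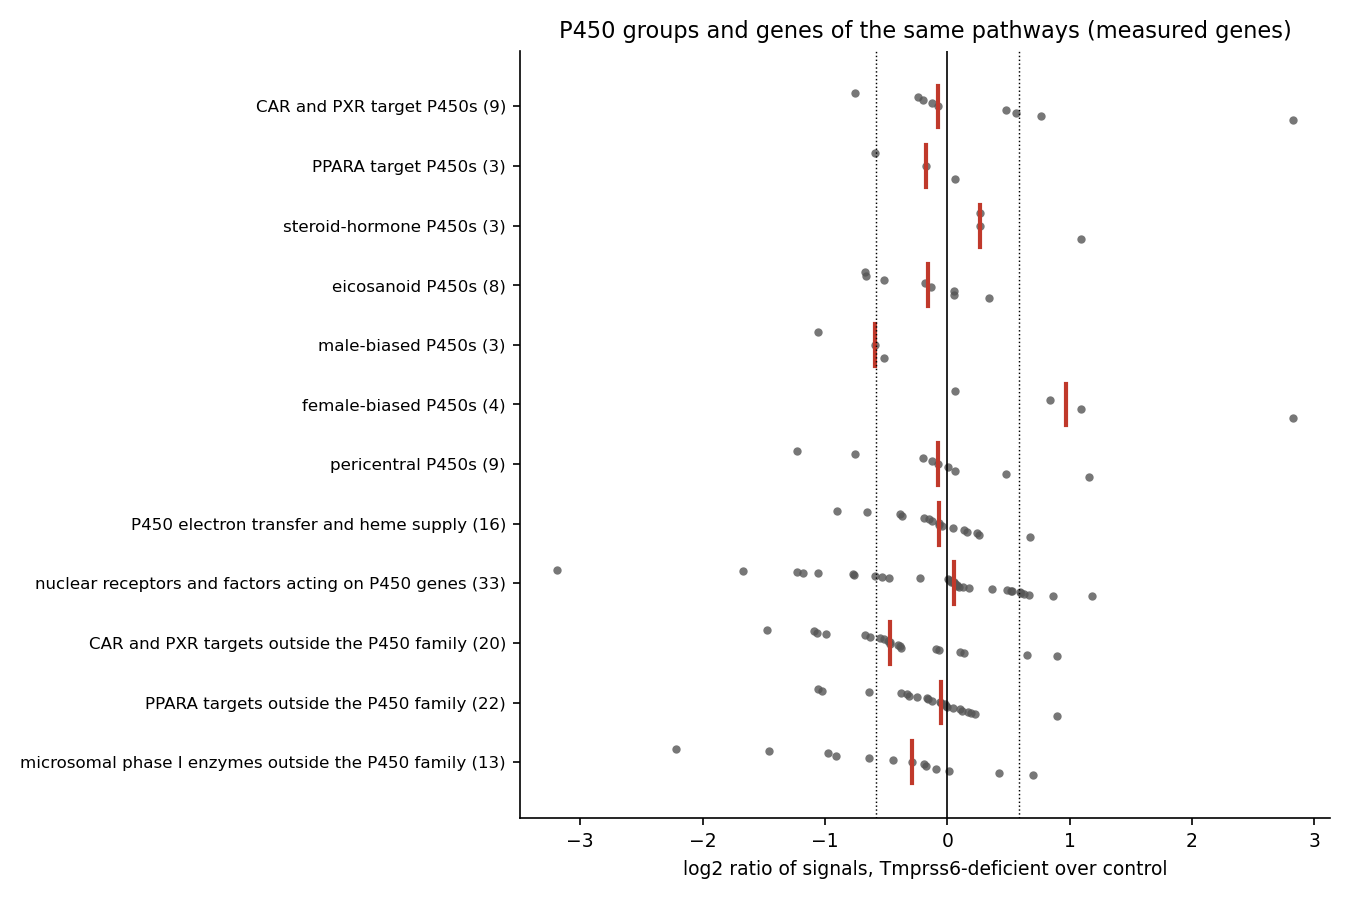
Log2 ratio, Tmprss6-deficient over control, of each measured gene (points) in P450 groups and in related gene lists with 3 or more measured genes; the red bar is the list's median, numbers in brackets count measured genes and dotted lines mark 1.5-fold. The CAR and PXR targets outside the family have a median of -0.47. The P450 targets of the same receptors have a median of -0.074, with Cyp2b10 far to the right. The list labelled microsomal phase I enzymes also holds enzymes that are not microsomal.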

How the data were processed

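Liver RNA was copied to cDNA, transcribed into biotin-labelled RNA and hybridised, per the labels' protocols. The deposited values are intensity signals on a linear scale, from MAS5, a tool named per the submitters' processing notes with no version or settings in the sources used here. Both deposited columns had a mean of 100.0 after leaving out 2% of probe sets at each end, so they had been scaled. Of 45101 probe sets, 34958 had 1 symbol, 932 several and 9211 were not in the annotation table; 4 sets naming several P450 genes were not used. Arrays were scaled to that trimmed mean, signals under the floor of 17.8 (50th percentile, without 64 control sets) were raised to it, and log2 was taken. All 87 member sets matched the RefSeq gene table by identifier, with 0 symbols changed. That table gave gene order only, with clusters allowing 10 genes between members. Promoters were aligned globally with Biopython 1.88. Other steps used Python 3.11.15 with pandas 2.3.3 and statsmodels 0.14.6, and the procedure was tested on simulated data. Members, gene lists, motifs and the rule for named genes (members past 1.5-fold, the brightest of each subfamily, and the 4 widest ratios of each other list) were chosen with earlier results of these data known. Genes outside that rule, such as Cux2, Stat5b, Nr1i2, Hlf, Nr0b2, Nr5a2, Lyve1, Clec4g, Acta2, Ppara, Ahr, Hnf4a, Tef, Alas1, Cyb5a, Star and Fabp2, were chosen for their role. The alternatives were other scalings, floors, probe set summaries and thresholds. No test was possible with 1 array per group.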

Additional observations from a re-analysis of the deposited data

How the results depend on the processing

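Of the 17 P450 genes past 1.5-fold, 15 stayed past it in the same direction under every one of up to 10 alternatives that gave them a value (4 scalings, 3 floors, 2 probe set summaries, and a restriction to genes measured on both arrays). The exceptions were Cyp4a12a, at -0.51 at the smallest, and Cyp4v3, at -0.40 on its plain probe set, and neither changed sign. The count of higher P450 genes was 11 of 62 measured when the floor was the 30th percentile, and that of lower genes was 5 at a 2-fold threshold. The overall median log2 ratio was -0.25 with scaling to the same median, which moves the median of all measured genes by -0.059, and -0.18 without Cyp2c39, an alternative added after seeing the data, as was the restriction to a mean signal of 256 or more. A floor at the 70th percentile and the restriction to both arrays each gave a Cyp2d median of -0.34, as did plain probe sets, and a Cyp3a median of -0.074. A floor at the 30th percentile gave a Cyp2j median of -0.27, and the floor used as a pseudocount gave a median of -0.14 for the other subfamilies. These subfamily medians rested on other numbers of genes than the main ones. They were 6 in place of 7 for Cyp2d, 3 in place of 4 for Cyp3a, and 5 in place of 3 for Cyp2j. For the other subfamilies they were 12 in place of 13. Whether anything else bears on these moves was not tested. The ratio of Cyb5r3 was 0.45 with plain probe sets only. No paired analysis was possible because each group holds 1 array. Signals near the floor limit the dim members, and 17 genes had none above it.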
